A study of Mus musculus with 2 samples.

Results

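The Schlafen and Ifi200 genes are a pair of mouse gene families, each lying in its own chromosomal cluster and each known to respond to interferon. They were followed here in activated CD4+ T cells cultured without or with IL-27. The 8 genes described are Slfn1, Slfn2, Slfn3, Slfn4 and Slfn8 of the Schlafen family and Ifi203, Ifi204 and Ifi205 of the Ifi200 family. They were chosen by name, with their differences in these data already known, so their values are descriptions and none of them was tested. Every probe set annotated with exactly 1 of these symbols was taken, which gave 11 probe sets for the 8 genes, out of 18003 probe sets for 11807 genes on the array.

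The series holds 2 arrays, 1 for each culture. Both cultures started from naive CD4+ T cells of female C57BL/6J mice, taken from spleen and lymph nodes, and both were activated for 60 h on plate-bound antibodies to CD3 and CD28. The untreated culture had no added cytokine, and the other had 25 ng/ml of recombinant mouse IL-27 during the activation. The sources used here give neither the age nor the number of the mice. IL-27, a relative of IL-12, binds a receptor made of Il27ra and Il6st, and in T cells it induces many genes that interferons also induce.

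Schlafen genes take their name from the German word for sleep, because they were first described as genes that hold T cells in a resting state. Slfn1 and Slfn2 encode short family members, Slfn3 and Slfn4 intermediate ones, and Slfn8 a long one with a helicase-like part. Ifi200 genes encode proteins that pair a pyrin domain, which binds other pyrin domains, with a HIN domain, which binds DNA, and the family includes the DNA sensor Aim2. Interferon-inducible genes often carry an interferon-stimulated response element near their start, a site bound by interferon regulatory factors and by interferon-activated complexes of STAT proteins.

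The promoter sequences are shown first because both families carry short sequence runs close to their starts that recur from gene to gene. RefSeq promoter windows on GRCm38.p6, from 250 bases before to 50 bases after each transcript start, were found for 7 of the 8 genes. Each sequence is written 5' to 3' on the strand of its gene, and positions are counted from the start, with the base before it at -1. In the first group the capitals mark a match to the core of the interferon response element, GAAA followed by any 2 bases and GAAA, on either strand, except for Ifi209. There they mark the run AAATCGAAAG, which the windows of Ifi203 and Ifi209 share and which was picked after the sequences had been read. It is present in 7 of 12 Ifi200 cluster genes and in 0.0444% of all genes in the table, which is 12 genes, these 7 included. Because it was picked from such windows, its rarity elsewhere is not an independent contrast. In each of the 7 except Ifi209 it overlaps a match to the core.
Ifi205 (chr1:174031864-174031893, minus strand, match at -134 to -125): caggGAAATTGAAAgctatgaacaaaactg
Ifi203 (chr1:173942502-173942531, minus strand, match at -35 to -26): tgggGAAATCGAAAgctatgaacagtgctg
Ifi211 (chr1:173913058-173913087, minus strand, match at -37 to -28): caggGAAATTGAAAgctatgaacgaaactg
Ifi209 (chr1:173630776-173630805, plus strand, run at -78 to -69): tgagtAAATCGAAAGagatgcactctgccg
Slfn8 (chr11:83020833-83020862, minus strand, match at -48 to -39 on the opposite strand): gcagTTTCGTTTTCcccaaaagcaagtaac

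The core of the response element was present in windows of 9 of the 12 Ifi200 cluster genes that have a window, against 3.99% of all 27025 genes in the table. These 9 are Ifi203, Ifi205, Ifi206, Ifi207, Ifi208, Ifi211, Ifi213, Ifi214 and Mndal. The Ifi203 and Ifi205 windows share a run of 14 bases that begins inside the core, GAAAGCTATGAACA. In Ifi203 the match lies before the second of its listed starts and after the first. Ifi205 has another match on the opposite strand after its start, at 24 to 33. Ifi200 genes arose as copies of each other, so their windows are not independent examples.

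In the Schlafen cluster the same core was found in 3 of the 8 genes with a window, Slfn5, Slfn8 and Slfn9, and among these only Slfn8 was measured. Slfn1, Slfn2, Slfn3 and Slfn4 had no match to it. Their windows share the run ACTTCCTGG, picked after the sequences had been read as the longest run common to these 4 genes. It is present in 4 of the 8 Schlafen cluster genes with a window and in 0.999% of all genes in the table. It is marked by capitals below. The Slfn1 and Slfn4 windows share a longer run of 15 bases, so these windows too are not independent examples.
Slfn1 (chr11:83116742-83116771, plus strand, run at -74 to -66): tcacACTTCCTGGagtgacatcaaccaatg
Slfn2 (chr11:83065053-83065082, plus strand, run at -55 to -47): tttcACTTCCTGGagggtgacagttctggg
Slfn3 (chr11:83191284-83191313, plus strand, run at -42 to -34): cagaACTTCCTGGgggagggactctggtaa
Slfn4 (chr11:83175109-83175138, plus strand, run at -73 to -65): ttatACTTCCTGGagtgacgaaatgctcaa

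The gamma-activated site, a palindrome bound by STAT dimers and searched as TTCNNNGAA, had no match in the windows of the 7 genes and was present in 9.55% of all genes. A match is a description of letters, and its absence concerns only these windows. The whole stretch before the start is given for the 3 genes that have 1 listed start and were at least 2-fold apart, with the same core and run in capitals.
Ifi205 (chr1:174031756-174032005, minus strand): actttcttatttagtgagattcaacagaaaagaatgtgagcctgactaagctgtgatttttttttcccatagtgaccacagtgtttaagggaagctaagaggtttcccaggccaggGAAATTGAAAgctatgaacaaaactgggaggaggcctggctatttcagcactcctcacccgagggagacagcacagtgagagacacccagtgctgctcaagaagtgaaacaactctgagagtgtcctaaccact
Slfn1 (chr11:83116570-83116819, plus strand): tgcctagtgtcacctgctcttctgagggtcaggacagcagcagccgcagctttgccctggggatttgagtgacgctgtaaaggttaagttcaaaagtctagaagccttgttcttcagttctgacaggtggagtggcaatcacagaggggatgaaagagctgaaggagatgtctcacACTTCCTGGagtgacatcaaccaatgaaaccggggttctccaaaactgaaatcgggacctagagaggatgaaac
Slfn2 (chr11:83064862-83065111, plus strand): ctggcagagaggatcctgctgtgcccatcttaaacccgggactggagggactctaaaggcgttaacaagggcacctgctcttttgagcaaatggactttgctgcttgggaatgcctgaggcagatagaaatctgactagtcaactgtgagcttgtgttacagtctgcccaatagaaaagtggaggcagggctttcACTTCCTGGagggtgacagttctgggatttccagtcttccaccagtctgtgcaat

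**Figure D1:**
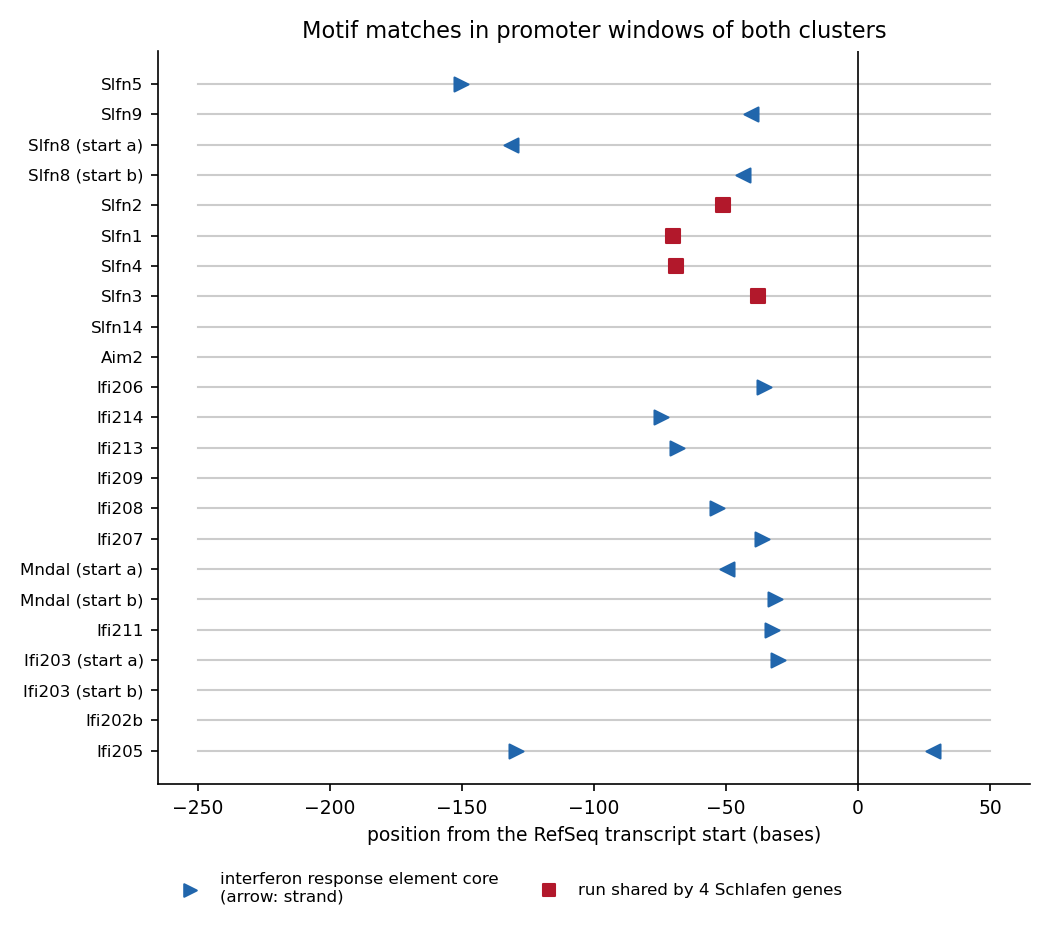
Positions of the interferon response element core (triangles, pointing along the matched strand) and of the run shared by Slfn1, Slfn2, Slfn3 and Slfn4 (squares) in RefSeq promoter windows of both clusters, in bases from the transcript start. The core recurs in 9 of 12 Ifi200 genes, and the shared run lies between -74 and -34 in the 4 Schlafen genes.

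A level is the deposited intensity of a probe set on a linear scale, and a difference is the log2 level on the array labelled IL-27-treated minus that on the array labelled untreated. With 1 array per group there was no replicate, no test was run, and an effect of the cytokine cannot be told apart from variation between cultures. A background floor was set at an intensity of 19.6, the 95th percentile of genes of other tissues. The arrays had close median intensities, 33.3 and 32.4. The difference in log2 signal between the 3' and 5' control probe sets of Gapdh was -0.13 on the untreated array and -0.12 on the treated array. All 9 measured genes listed for CD4+ T cells, which are Cd4 and general T cell markers, exceeded the floor on both arrays. Their median difference was -0.15, with 6 lower and 3 higher on the treated array. Cd4 read 342.5 and 395.4 and Cd5, the widest apart of the 9, 2650 and 1639. Directions follow the labels. Socs3 and Il21, which STAT3 is known to induce downstream of IL-27, ran the other way, with Socs3 at 1122 and 185.8 and Il21 at 384.3 and 26.7 on the arrays labelled untreated and IL-27-treated. Were the labels exchanged, every difference below would keep its size and change its sign, and ranks would count from the other end.

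Of the 8 genes, 5 exceeded the floor on at least 1 array, of which 4 were higher by 2-fold or more with IL-27 and 0 were lower by as much. For all 7279 genes above the floor the shares were 1.43% higher and 2.62% lower. By probe set, 5 of the 6 above the floor were higher by 2-fold or more and 0 lower, where the shares over all 10724 were 1.25% higher and 2.44% lower. The members were picked for such values, so nothing is read from these shares. By the brighter probe set of each gene the differences were wider in Ifi205 and Ifi203 than in Slfn1, Slfn2 and Slfn8, but averaged over both probe sets Ifi203 stood at 1.08, below Slfn1 at 1.19. The remaining 3 genes, Slfn3, Slfn4 and Ifi204, stayed below the floor on both arrays.

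**Figure D2:**
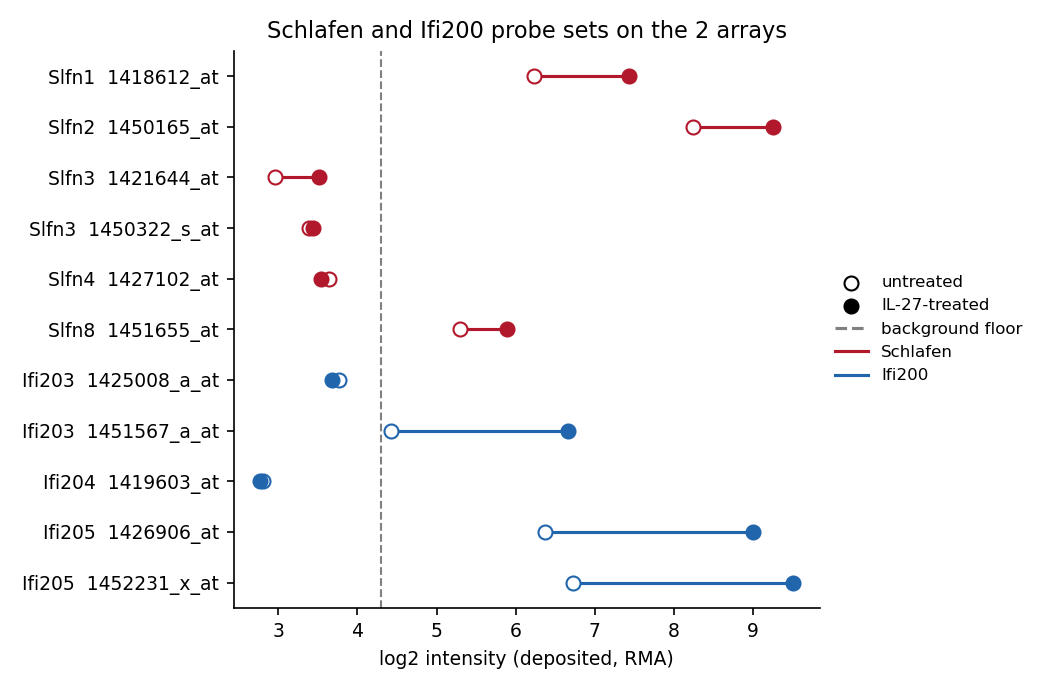
Log2 intensity of the 11 member probe sets on the array labelled untreated (open circles) and the array labelled IL-27-treated (filled circles), with the background floor as a dashed line. Slfn1, Slfn2, Slfn8, Ifi205 and the brighter probe set of Ifi203 lie to the right of the floor with the filled circle higher, and 5 probe sets lie to its left on both arrays.

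Ifi205 encodes an Ifi200 protein best known from macrophages, where it has been studied in inflammasome responses. Its first probe set read 82.5 on the untreated array and 511.7 on the treated array, a difference of 2.63, or 6.21-fold. Its other probe set read 105.5 and 726.2, a difference of 2.78, or 6.89-fold. The treated array was the higher by both probe sets, and their differences were 0.15 apart. For comparison, the pooled SD between probe sets of 1 gene was 0.22 over the 2434 genes with several above the floor, which covers error between probe sets only. The differences of Ifi205 ranked 9 and 14 from the top among 10724 probe sets. The second probe set has the suffix _x_at, given where some probes can also match other transcripts, and the first has the plain suffix _at.

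The reading of Ifi205 may include a close relative. Both of its probe sets are annotated with the same transcript record. RefSeq lists Ifi205a as another name of Ifi205 and Ifi205b as another name of Ifi211, which had no probe set of its own here. The promoter windows of Ifi205 and Ifi211 share a run of 45 bases. How much of the signal came from each gene was not tested.

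Ifi203, whose product is a nuclear protein of the same family, had 1 probe set on each side of the floor. The brighter read 21.4 on the untreated array and 100.9 on the treated array, a difference of 2.24, or 4.71-fold, at rank 22. Its untreated value was only 1.09 times the floor, so it passed the filter mainly through the treated array. With the floor set higher, at an intensity of 23.7, the fold would be a lower bound of at least 4.26. The dimmer probe set read 13.6 and 12.8 and was below the floor on both arrays, although the annotation gives both the same transcript record. Both carry the suffix _a_at, used for probe sets that match several transcript forms of a gene. RefSeq also lists Mndal as another name of Ifi203, and Mndal is at the same time a separate gene of the cluster. Whether the reading of Ifi203 includes Mndal was not tested.

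Ifi204, the mouse gene usually set beside the human DNA sensor IFI16, read 6.97 and 6.83, below the floor on both arrays. Among relatives outside the 8 genes, only Ifi209 and Ifi202b had a probe set of their own. Ifi209, which is also called Pyhin1, read 40.9 and 51.2 by its brighter probe set and 29.9 and 38.8 by its dimmer one. Its differences of 0.32 and 0.37 agreed to within 0.05, were well short of 2-fold, and ranked 1778 and 1432. Ifi202b, a family member without a pyrin domain that is known to be scarcely expressed in C57BL/6 mice, read 13.1 and 12.3, below the floor on both arrays.

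Slfn1, described as a growth inhibitor when forced into thymocytes, read 75.3 on the untreated array and 172.2 on the treated array. This is a difference of 1.19, or 2.29-fold, at rank 83 of 10724. Slfn2 is needed for T cell quiescence in mice, and its loss of function leaves T cells unable to stay at rest. It read 301.4 and 607.3, a difference of 1.01, or 2.01-fold, at rank 132. Slfn2 was thus just past 2-fold, and it fell just short of it, at 0.97, both after loess normalization and with a pseudocount of 16. Slfn1 and Slfn2 have 1 probe set each, so neither difference has a second reading, and the gap of 0.18 between them was smaller than the SD of 0.22 between probe sets of 1 gene.

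Slfn8, the long family member, read 39.3 and 59.3, a difference of 0.59, or 1.51-fold, at rank 531. Its treated value was the higher, but the difference was 0.60 below that of Slfn1. Its treated value was 3.02 times the floor.

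Slfn3 and Slfn4 were below the floor on both arrays and no fold is given. Slfn3 read 7.78 and 11.4 by its plain probe set and 10.5 and 10.9 by its other one, whose suffix _s_at marks probes shared with other transcripts. Slfn4, best known from activated macrophages and other myeloid cells, read 12.5 and 11.7. The 5 member probe sets below the floor ranged from 6.83 to 13.6 in intensity, and their differences are not interpreted.

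**Figure D3:**
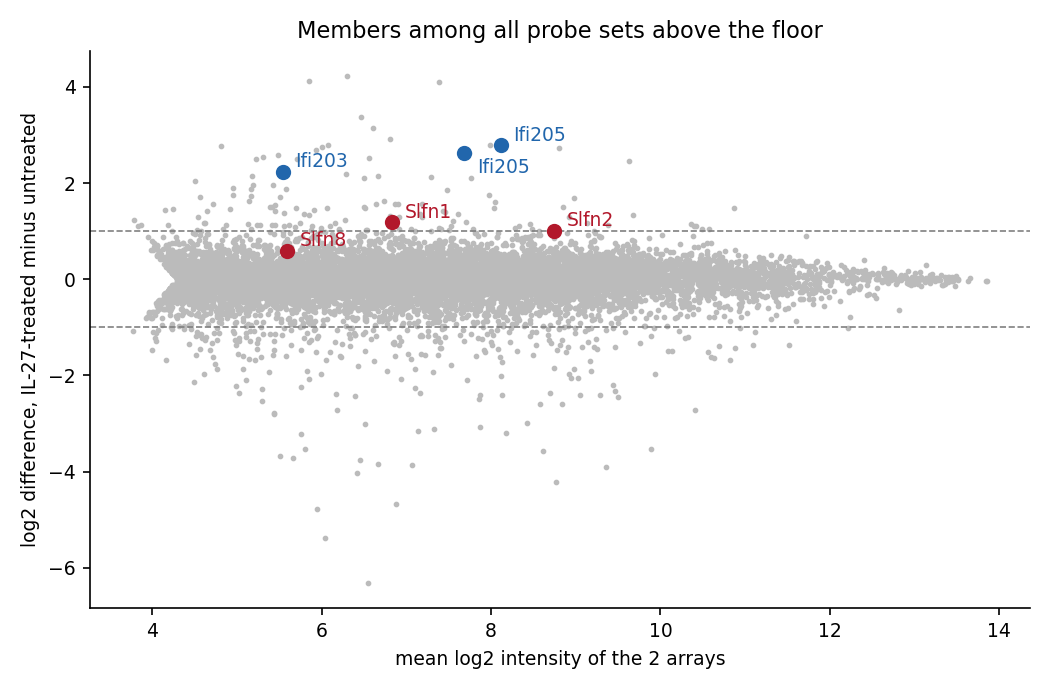
Log2 difference (IL-27-treated minus untreated) against the mean log2 intensity of the 2 arrays for the 10724 probe sets above the floor (grey), with the 6 member probe sets coloured red (Schlafen) and blue (Ifi200); dashed lines mark 2-fold. Ifi205 and Ifi203 lie among the largest positive differences, Slfn1 and Slfn2 close to the 2-fold line and Slfn8 below it.

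The members' differences, known when they were chosen, are set here in the order of the genes along the chromosome, as a description. In RefSeq the Schlafen cluster runs from Slfn5 to Slfn14 and holds 19 annotated genes, pseudogenes and RNA genes included, of which 5 were measured. Read in that order, Slfn8, Slfn2 and Slfn1 follow each other as measured genes and had differences of 0.59, 1.01 and 1.19. Slfn4 and Slfn3 come next and were below the floor. The 3 nearest measured genes on each side, Rffl, Rad51d and Nle1 before and Ap2b1, Ccl5 and Ccl9 after, gave 5 above the floor. These 5 differed by -0.22 to 0.44, and 0 of them were 2-fold apart, beside 1.43% higher and 2.62% lower over all genes. A count of 0 over 5 genes is near that background.

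The Ifi200 cluster runs from Aim2 to Ifi205 and also holds 19 annotated genes, with 5 measured. Ifi205 is the last gene of the cluster in this order, and Ifi203 is separated from it by Ifi202b, which was below the floor, and by a pseudogene. Ifi209 and Ifi204 lie nearer to Aim2, with the small difference and the values below the floor given above. The 3 nearest measured genes on either side, Olfr16, Fcer1a and Cadm3 before and Mptx1, Fmn2 and Rgs7 after, were all below the floor, so they gave no difference to compare.

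**Figure D4:**
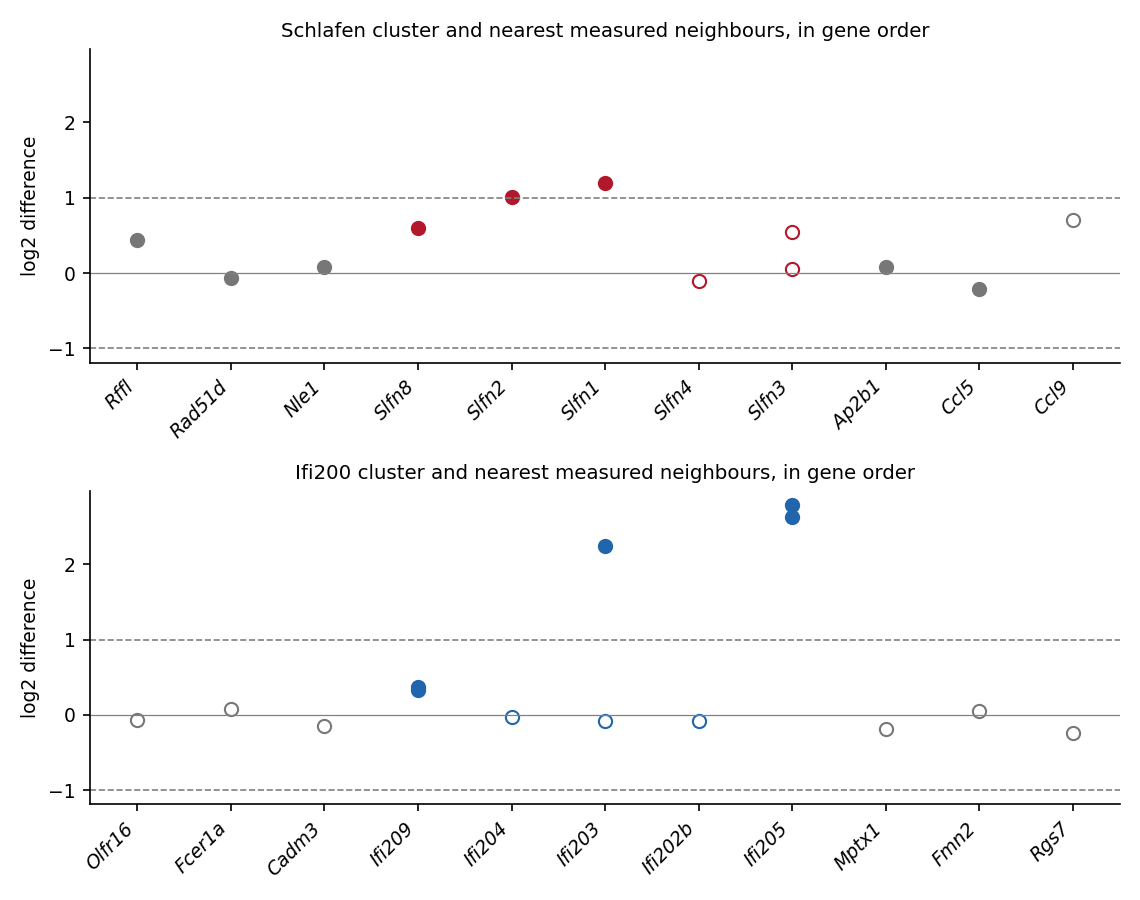
Log2 difference of each measured probe set of both clusters (red, Schlafen; blue, Ifi200) and of the nearest measured neighbour genes (grey, 1 probe set each), in RefSeq gene order and not to distance; open circles are below the floor on both arrays and dashed lines mark 2-fold. Slfn8, Slfn2 and Slfn1 are adjacent among measured genes, and their neighbours above the floor lie between -0.22 and 0.44.

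The genes that carry interferon signals to such targets are given next. Of 15 interferon receptor, kinase, transcription factor and feedback genes, all above the floor, 0 were 2-fold apart in either direction, beside 1.43% higher and 2.62% lower over all genes. Over so few genes a count of 0 is near that background. Their median difference was 0.08, beside 0.01 over all genes. Ifngr2, a chain of the interferon gamma receptor, read 31.2 and 59.9, a difference of 0.94, and 0.08 by its other probe set. The partner chain Ifngr1 differed by -0.71. Irf7, an amplifier of type I interferon responses, was below the floor on the untreated array and at least 1.46-fold higher on the treated one. The kinase gene Jak1 differed by -0.45 by its brightest probe set, and by -0.51 and 0.19 by the others.

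Among other interferon-stimulated genes above the floor, 18 were higher and 7 lower by any amount. Over all 7279 genes above it the counts were 3758 and 3499. Of 25 above the floor, 5 were higher by 2-fold or more and 0 lower by as much. The shares over all genes were 1.43% higher and 2.62% lower. The median over the 25 was 0.45. That median fell on a gene below the floor on the untreated array, and it was 0.29 once dim values were set to the floor and 0.27 over all 31 measured genes. Iigp1, an interferon-inducible GTPase that acts on vacuoles of intracellular parasites, read 173.4 and 1153, a difference of 2.73, close to that of Ifi205. Ifi27l2a differed by 1.48, the virus restriction factor Ifitm3 by 1.43 and the GTPase gene Irgm1 by 1.18, which is close to Slfn1. The following genes are named after their values were seen. Isg20 differed by 1.03, Ifih1 by 0.82, Lgals3bp by 0.68, Ifit2 by 0.54, Parp14 by 0.52, Oas3 by 0.51 and Ifit1 by 0.13. On the lower side Dhx58 differed by -0.81 and Gbp2 by -0.43, and Oasl1 was at least 1.51-fold lower. Oas1g differed by -0.04, whereas Mx1, Mx2, Oas2 and Oasl2, typical targets of type I interferon, were below the floor on both arrays.

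The next list holds genes of cytosolic DNA sensing and of the inflammasome. Of its 20 symbols 15 were measured, and Aim2 was not. Of 12 above the floor, 0 were 2-fold apart, which over so few genes is near the background of 1.43% higher and 2.62% lower over all genes, and their median was 0.10. Casp1, the inflammasome protease, read 26.6 and 47.5, a difference of 0.84, with the untreated value close to the floor. Zbp1, a sensor of Z-form nucleic acids that also belongs to the interferon-stimulated list, differed by 0.77 and 0.53 by its probe sets. Il18, a cytokine that Casp1 activates, read 34.7 and 21.8, a difference of -0.67, with the treated value close to the floor. Samhd1, an enzyme that degrades nucleotides, differed by -0.52. Ifnb1, which encodes interferon beta, read 11.5 on the untreated array, and its level was under the floor on the untreated and the treated array alike.

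Genes of T cell quiescence, the function for which Slfn2 is known, lay on both sides, with 9 higher and 7 lower by any amount. Of 16 above the floor, 0 were higher by 2-fold or more and 1 was lower by as much, with a median of 0.01, the same as over all genes to 2 decimals, and beside 1.43% higher and 2.62% lower over all genes. The lower gene was Cdkn2d, an inhibitor of cell cycle kinases, which read 1384 and 685.3, a difference of -1.01.

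**Figure D5:**
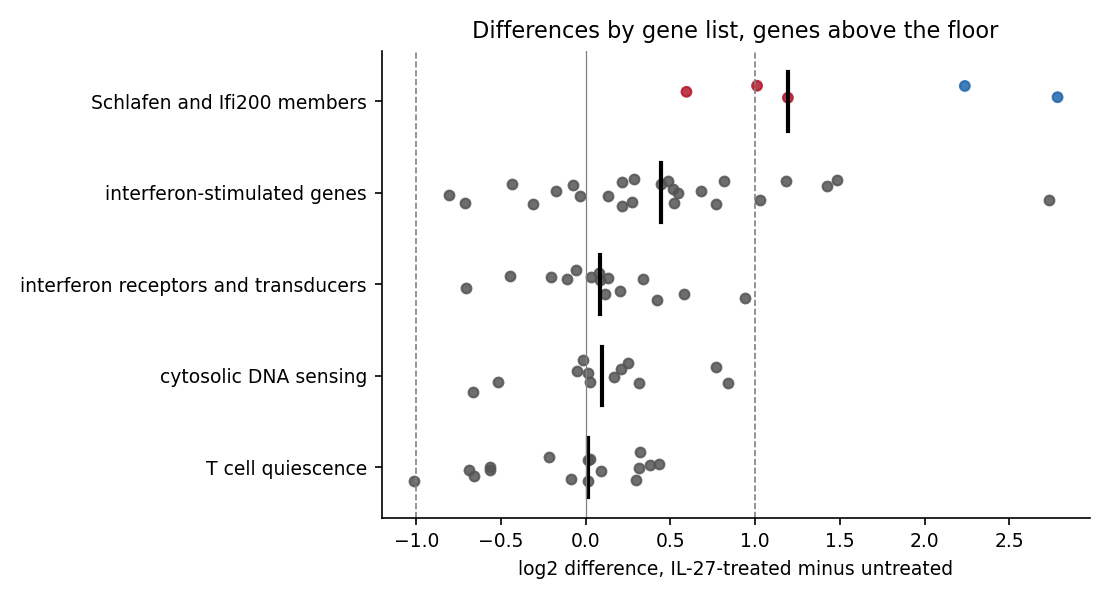
Log2 difference (IL-27-treated minus untreated) of genes above the floor, by list, with black bars at the medians, dashed lines at 2-fold and small random vertical offsets. Medians are 1.19 for the 5 members above the floor, which were chosen for these values, 0.45 for interferon-stimulated genes, and between 0.01 and 0.10 for the other lists.

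Because Ifi205 and several other members are prominent in myeloid cells, markers of such cells are given beside them. Of 9 measured macrophage and monocyte markers, 3 exceeded the floor on at least 1 array. Cd68 read 54.9 and 27.5, Csf1r 26.2 and 24.4, and Mpeg1 14.7 and 19.7. The summed intensity of the 9 was 166.5 on the untreated array and 143.7 on the treated array, and without Cd68 it was 111.6 and 116.2. Lyz2, Adgre1, Itgam, Cd14, Fcgr1 and Cd163 were below the floor on both arrays. The 7 granulocyte markers summed to 97.4 and 104.4, with Elane and Ltf alone above the floor, and the 4 dendritic cell markers were all below it, at sums of 54.5 and 50.5. Above the floor on at least 1 array were 1 of 2 CD8+ T cell markers, 1 of 7 B cell markers, 3 of 6 NK cell markers and 0 of 2 erythroid markers. The CD8+ T cell marker was Cd8b1, which read 119.3 and 176.5, while Cd8a was below the floor by its brighter probe set. The NK cell markers were the widest apart, with Eomes, which activated T cells also express, at 32.8 and 290.4. Klrd1 was at least 5.81-fold lower on the treated array, from 114.2, and Klrk1 at least 3.48-fold lower, from 68.2. The 6 NK cell markers summed to 249.1 and 357.3, and the higher sum on the treated array rests on Eomes. Of the 3 above the floor, 1, Eomes, was higher on that array and 2 were lower. What part any of these cells had in the members' values was not tested. In bulk samples, more cells of a type and more RNA per cell cannot be told apart.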

How the data were processed

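The deposited values are linear intensities, 1 for each probe set on each array. RMA was used by the authors, per the submitters' processing notes. It subtracts background, equalizes the arrays' distributions and summarizes probe sets, and the sources used here give no version or settings. RMA hides changes in total RNA and compresses dim signals. Per the labels' protocols, 100 ng of total RNA was amplified from the 3' end.

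Of 22716 probe sets, the platform annotation gave 1 symbol for 18003, several for 287 and none for 4426, and 17977 of the 18003 matched RefSeq GRCm38.p6 by gene identifier. Log2 values were taken without a pseudocount. The probe set highest in mean log2 level stood for its gene. The floor used 39 measured genes of 46 listed from other tissues. Called means at least 2-fold apart, and above the floor on at least 1 array.

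Named genes are all members, measured relatives, and from each list those past 2-fold or, if more than 4 or none, the up to 4 with the largest absolute difference; likeness over 2 arrays was replaced by ranks of differences. Rbm15, listed by mistake among relatives, belongs to neither family and was dropped. The members and lists were chosen with earlier results of these data known. A planned comparison of proteins was not run. The procedure was tested on simulated arrays. Python 3.11.15, pandas 2.3.3, numpy 2.4.6 and statsmodels 0.14.6 were used.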

Additional observations from a re-analysis of the deposited data

How the results depend on the processing

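Of 36 values of the 6 member probe sets under alternatives, 35 moved by less than the SD between probe sets of 1 gene. The other was Ifi203 at 1.64 with a pseudocount of 16. Part of this was fixed in advance. All 6 exceeded the floor on both arrays, so raising dim values to it could not move them. The higher floor could move Ifi203 alone, and median subtraction shifts every probe set equally. No member changed direction under median subtraction, quantile or loess normalization, and a pseudocount cannot change a direction. Ranges were 2.42 to 2.67 and 2.61 to 2.82 for the probe sets of Ifi205, 1.64 to 2.27 for Ifi203, 1.04 to 1.23 for Slfn1, 0.97 to 1.05 for Slfn2 and 0.45 to 0.63 for Slfn8. After loess and with the pseudocount 3 member genes were at least 2-fold higher, Slfn2 dropping out. The pseudocount left 89 probe sets higher in all, since an added constant shrinks dim differences. At 1.5-fold, 558 of 10724 probe sets were higher and 756 lower, or 366 and 515 of 7279 genes. At that threshold the counts higher and lower were 8 and 2 of 25 interferon-stimulated genes and 1 and 1 of 15 receptors and transducers. They were 2 and 1 of 12 DNA sensing genes and 0 and 3 of 16 quiescence genes. Nothing is read from such small counts. Cdkn2d was no longer 2-fold lower, leaving 0 quiescence genes, after median subtraction and with the pseudocount. The higher floor, at an intensity of 23.7, was added after seeing the data. No paired analysis was possible because each group has 1 array, and for the same reason no replicate could be left out. Signal at or under the floor of 19.6 leaves Slfn3, Slfn4 and Ifi204 without a fold, and Ifi203 at 21.4 on the untreated array is close to it.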
